A study of Homo sapiens with 6 samples.

Results

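The enzymes and helper protein that turn arachidonic acid into prostanoids and leukotrienes are described here as 10 genes, TBXAS1, PTGS1, PTGS2, PTGES, PTGDS, HPGD, ALOX5, ALOX5AP, LTA4H and LTC4S. Their rows were found by gene symbol, and each of the 10 had exactly 1 row among 17687 named genes and 21448 probe sets. The study compared K562 cells, an established human erythroleukaemia line, carrying a vector for the microRNA miR-543 (3 arrays) with K562 cells carrying a control vector (3 arrays). The labels name the vectors but give neither their promoter nor the time after delivery, and they do not say whether the 3 replicates of a group were separate cultures, so p-values here speak only of the scatter among these 6 arrays, part or all of which could be technical. No probe set was named for miR-543, so its level was not checked. The genes were selected on measured values of these arrays, the level with the control vector and the change between the vectors. Their values are therefore a description, and the adjusted p-values, from a limma fit over all probe sets, are given as that fit's values and not as independent evidence.

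Eicosanoids are short-lived lipid signals made from arachidonic acid released from membranes by phospholipase A2 enzymes. The cyclooxygenases PTGS1 and PTGS2 make prostaglandin H2, which terminal synthases turn into thromboxane A2, prostaglandin E2, prostaglandin D2 and others, and HPGD inactivates prostaglandins. ALOX5, with its helper protein ALOX5AP, starts the leukotriene branch, which LTA4H and LTC4S complete. In blood, thromboxane is best known from platelets and the leukotrienes from granulocytes, mast cells and macrophages.

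The sequence of miR-543 is shown because the vector carries this microRNA. The mature strand lies on the plus strand at chr14:101032033-101032054 (RefSeq, GRCh38.p14), and capitals mark its seed, bases 2 to 8.
hsa-miR-543: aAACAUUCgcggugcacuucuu
Of 2370 mature microRNA names in the RefSeq table, 0 others had the same 7 seed bases counted from base 2 to base 8. No 3′ ends of the enzyme mRNAs were analysed here, so matches to this seed were not counted.

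The 250 bases before the RefSeq transcript start are shown for 3 genes, TBXAS1 and PTGES because their groups of arrays did not overlap, and PTGS2 as the inducible cyclooxygenase with a low signal. Windows were found for 9 of the 10 genes. Capitals mark matches on either strand to 6 motifs. They are TGANTCA (here called the NF-E2 core, shared with AP-1 factors), GAGGAA (read by PU.1 and other ETS factors), AGATAA (read by GATA factors), TATAAA (the TATA box), CCAAT (the CCAAT box) and GGGCGG (the GC box). In TGANTCA the N stands for any base, so it is a loose form of that core. In TBXAS1 the last of the GAGGAA matches runs straight into a TATA box match.  TBXAS1 is on the plus strand at chr7:139829014-139829263, PTGES on the minus strand at chr9:129753043-129753292 and PTGS2 on the minus strand at chr1:186680424-186680673 (GRCh38.p14).
TBXAS1: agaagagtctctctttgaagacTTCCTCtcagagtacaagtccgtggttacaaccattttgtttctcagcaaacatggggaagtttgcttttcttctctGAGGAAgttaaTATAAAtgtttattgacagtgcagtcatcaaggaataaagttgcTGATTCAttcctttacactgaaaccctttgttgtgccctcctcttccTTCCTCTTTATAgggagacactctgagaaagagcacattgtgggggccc
PTGES: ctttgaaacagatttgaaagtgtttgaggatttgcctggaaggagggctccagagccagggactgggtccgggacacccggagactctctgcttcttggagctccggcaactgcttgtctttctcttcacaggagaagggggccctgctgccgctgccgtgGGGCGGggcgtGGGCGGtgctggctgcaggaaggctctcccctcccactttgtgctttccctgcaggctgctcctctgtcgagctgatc
PTGS2: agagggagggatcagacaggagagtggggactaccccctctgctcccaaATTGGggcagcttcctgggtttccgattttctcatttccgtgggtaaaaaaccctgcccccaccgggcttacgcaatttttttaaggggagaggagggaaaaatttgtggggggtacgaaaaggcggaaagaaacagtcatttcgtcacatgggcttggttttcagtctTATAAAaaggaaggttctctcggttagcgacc
The TBXAS1 window held 1 match to this loose NF-E2 core (TGATTCA), 96 to 90 bases before the start, with 3 matches to GAGGAA and 2 to TATAAA. The NF-E2 core was found in 2308 of 35116 such windows (6.57%), GAGGAA in 23.6% and TATAAA in 10.7%. The motifs were chosen after the TBXAS1 sequence had been seen, so these shares cannot mark its matches as unusual. NF-E2, a factor of the erythroid and megakaryocyte lineages, is known from earlier work to act on the TBXAS1 promoter in megakaryocytic cells. A match is a description of letters and not a binding site.

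The TBXAS1 window held 1 CpG, and 6.1% of all windows held fewer, against a median of 11. The PTGES window held 9 CpGs and 2 GC boxes (GGGCGG was present in 42.6% of windows) and no match to the NF-E2, GAGGAA or TATA letters. The PTGS2 window also held 9 CpGs, with TATAAA 32 to 27 bases before the start. Among the 11 windows of these genes the most CpGs, 29, were in 1 of the 2 windows of HPGD, while LTA4H held 14 and ALOX5AP 3. The NF-E2 core was found in 1 of the 9 genes, TBXAS1, and GAGGAA in 4 of them.

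**Figure D1:**
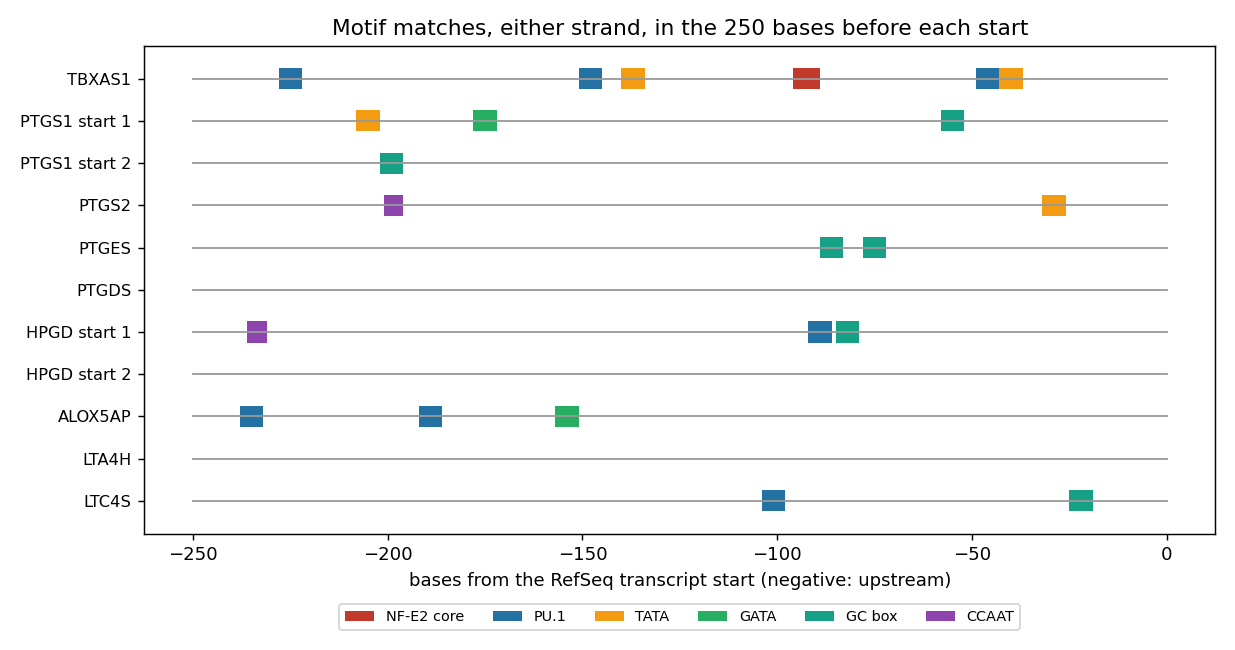
Motif matches on either strand (coloured blocks) in the 250 bases before 11 RefSeq transcript starts of 9 enzyme genes; the x axis is distance from the start in bases. The TBXAS1 line carries the 1 NF-E2 core block, 96 to 90 bases before its start, and PTGDS, LTA4H and the second start of HPGD carry no block.

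Array quality bears on all values below. The medians of the 6 arrays were 5.99 to 6.01 (log2) and the lower quartiles 3.98 to 4.03, and Pearson's r across probe sets was 0.9945 to 0.9957 within groups and 0.9931 to 0.9951 between groups, so no array stood apart. The erythroid identity of the line was seen in 12 of 13 measured erythroid markers above the array median on all 6 arrays, including GATA1 at 15.67 with the miR-543 vector and 15.66 with the control vector. Signals of different probe sets depend on the probes, so they are not read as relative amounts of RNA. Bright, dim, list sums and shares of a sum below describe array signal only. Of the 10 enzymes, 4 (TBXAS1, PTGS1, HPGD and LTA4H) lay above the array median on all 6 arrays and 6 below it, as did 47.1% of all probe sets for each. No detection calls were used, so the dim genes were not sorted into present or absent.

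Between the vectors, TBXAS1 was the 1 enzyme of the 10 called at an adjusted p under 0.05, and it was higher with the miR-543 vector. None was called lower. Over all 21448 probe sets 122 (0.569%) were called, 28 higher (0.131%) and 94 lower (0.438%), and since the genes were selected on this comparison nothing is read from the count. TBXAS1 was also the 1 enzyme with a log2 change over 1 either way, as had 0.457% of all probe sets. The other 9 enzymes had log2 changes of -0.20 to 0.45, and their 95% intervals lay between -0.62 and 0.83, inside a 2-fold change either way. The median change of the 10 was 0.037, beside 0.013 over all probe sets, with 6 above 0 and 4 below.

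**Figure D2:**
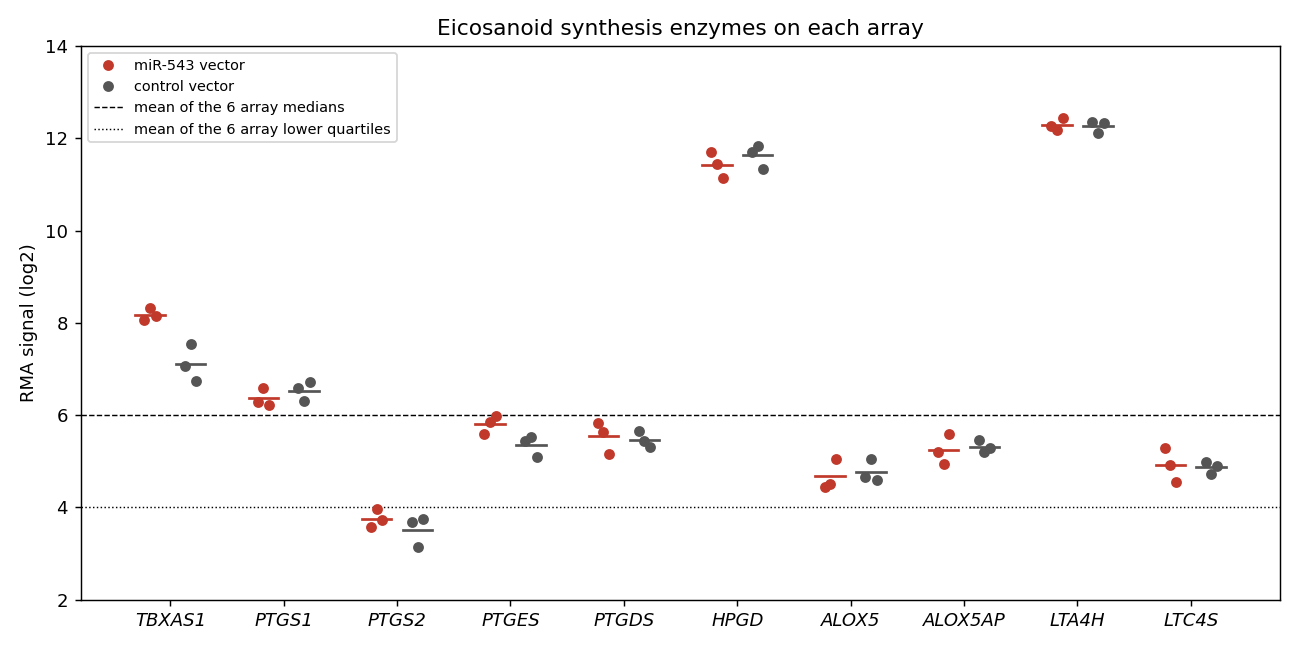
RMA signal (log2, y axis) of the 10 enzymes on each array, with miR-543 vector arrays left (red) and control vector arrays right (grey) and bars at the group means (n = 3 each). TBXAS1 is at 8.06 to 8.31 with the miR-543 vector and at 6.74 to 7.53 with the control vector, while the 6 genes below the dashed line of array medians include PTGS2, ALOX5, ALOX5AP and LTC4S.

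The cyclooxygenases stand at the head of the prostanoid branch. PTGS1, the constitutive enzyme, had log2 signals of 6.29, 6.58 and 6.21 with the miR-543 vector, against 6.58, 6.30 and 6.71 with the control vector. Its groups overlapped, and the change was -0.17 (SE 0.16, 95% interval -0.54 to 0.20; limma adjusted p = 0.782). PTGS2, the inducible enzyme, had signals of 3.57, 3.97 and 3.72 with the miR-543 vector, against 3.68, 3.14 and 3.74 with the control vector. These signals lay below the array lower quartile on all 6 arrays, as did those of 17.6% of all probe sets, so the change of 0.23 (SE 0.19, interval -0.19 to 0.65) was measured near the dim end of the scale.

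TBXAS1, the thromboxane synthase (a cytochrome P450 that turns prostaglandin H2 into thromboxane A2, on chromosome 7), had log2 signals of 8.06, 8.31 and 8.15 with the miR-543 vector, against 7.06, 7.53 and 6.74 with the control vector. All 3 miR-543 arrays lay above all 3 control arrays, and the gap of 0.53 between the groups was smaller than the range of 0.79 within the control arrays. The mean was 8.17 ± 0.13 with the miR-543 vector and 7.11 ± 0.40 with the control vector (SD, n = 3 each). The log2 change of 1.06 (SE 0.20) amounted to 2.09-fold, with a 95% interval of 1.54-fold to 2.83-fold. The limma adjusted p of 0.0498 put TBXAS1 at rank 122 of the 122 calls, so it was the last call inside the threshold. A two-sided exact permutation test gave p = 0.1, and no smaller p is possible with 3 arrays a group. The call depended on the arrays used: it held without control replicate 2 (adjusted p = 0.0256) and was lost without control replicates 1 or 3 (0.205 and 0.141) and without miR-543 replicates 1, 2 or 3 (0.116, 0.176 and 0.14), while the change stayed between 0.88 and 1.27.

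**Figure D3:**
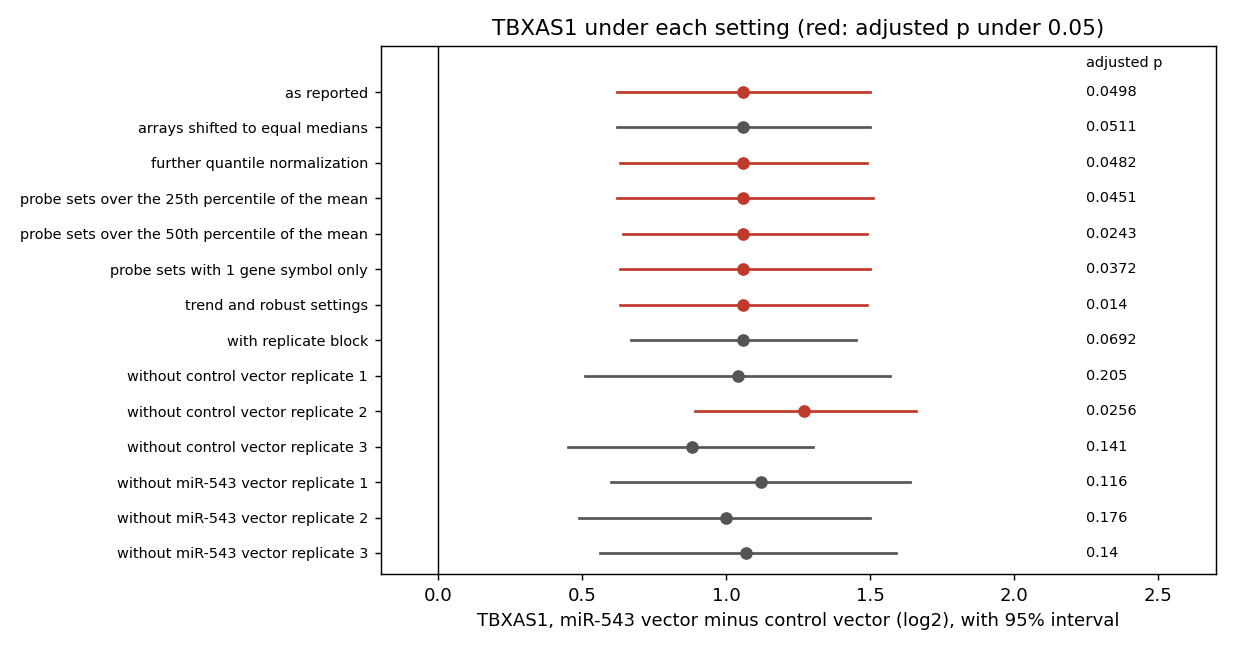
Log2 change of TBXAS1 with its 95% interval (x axis) under the reported fit and 13 alternative fits (rows), with the limma adjusted p at the right and red for an adjusted p under 0.05. All 14 intervals lie above 0, and the adjusted p runs between 0.014 and 0.205.

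The terminal synthases of prostaglandins E2 and D2 were not called. PTGES, the microsomal prostaglandin E synthase, had signals of 5.59, 5.84 and 5.98 with the miR-543 vector, against 5.43, 5.53 and 5.09 with the control vector. The groups did not overlap, though by only 0.06, and the change of 0.45 (SE 0.17, interval 0.08 to 0.83) was not called (limma adjusted p = 0.385). Of the 10 enzymes 2, TBXAS1 and PTGES, had all miR-543 arrays above all control arrays and 0 had them below, where 7.89% and 7.50% of all probe sets did (15.4% for either). PTGDS, the lipocalin-type prostaglandin D synthase, had signals of 5.82, 5.63 and 5.16 with the miR-543 vector, against 5.66, 5.43 and 5.30 with the control vector. Its groups overlapped, with a change of 0.07 (interval -0.35 to 0.49).

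HPGD, the 15-hydroxyprostaglandin dehydrogenase that inactivates prostaglandin E2, was among the bright probe sets. Its signals were 11.70, 11.45 and 11.13 with the miR-543 vector, against 11.71, 11.84 and 11.34 with the control vector. The lowest array belonged to the miR-543 group and the highest to the control group, yet the groups overlapped. The change was -0.20 (SE 0.19, interval -0.62 to 0.22; limma adjusted p = 0.771).

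In the leukotriene branch no enzyme was called. ALOX5, the 5-lipoxygenase, had signals of 4.45, 4.51 and 5.05 with the miR-543 vector, against 4.65, 5.05 and 4.59 with the control vector. ALOX5AP, the membrane protein that presents arachidonic acid to ALOX5, had signals of 5.20, 4.95 and 5.60 with the miR-543 vector, against 5.46, 5.20 and 5.28 with the control vector. The highest ALOX5 signal was 5.05 in each group, the highest and the lowest ALOX5AP signal were both on miR-543 arrays, and the groups overlapped in each gene, with changes of -0.09 (interval -0.53 to 0.34) for ALOX5 and -0.06 (-0.46 to 0.34) for ALOX5AP. LTA4H, the hydrolase that makes leukotriene B4, was bright and even, with 12.26, 12.18 and 12.44 with the miR-543 vector, against 12.35, 12.11 and 12.34 with the control vector. Its change of 0.03 had the narrowest interval of the 10, -0.30 to 0.35. LTC4S, which joins glutathione to leukotriene A4, had signals of 5.28, 4.92 and 4.54 with the miR-543 vector, against 4.98, 4.73 and 4.89 with the control vector. Its range within the miR-543 arrays (0.74) was wider than within the control arrays (0.25), around a change of 0.05 (interval -0.38 to 0.47). When single arrays were left out, the sign of the small changes of ALOX5, ALOX5AP, LTA4H, LTC4S and PTGDS turned, so these 5 have no settled direction.

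**Figure D4:**
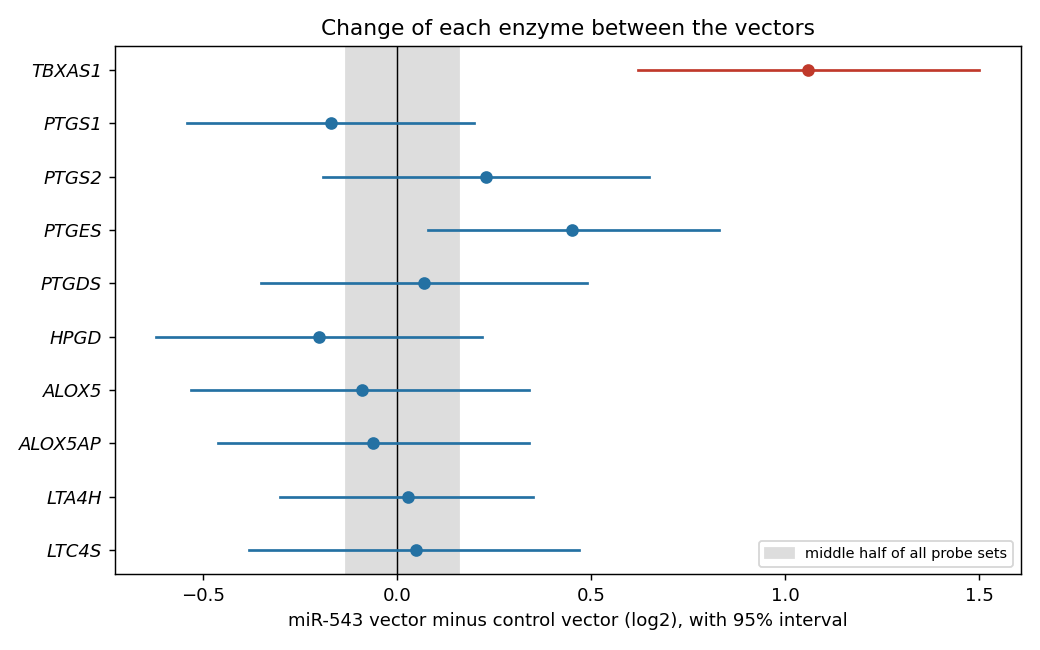
Log2 change (miR-543 vector minus control vector) of each enzyme with its 95% interval; the grey band runs between the quartiles of all probe sets (-0.13 to 0.16). TBXAS1 (red) is at 1.06 and PTGES at 0.45, and the intervals of the other 8 include 0.

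The rest of the pathway was read from 8 lists of 129 other genes, 114 of them measured, which cover arachidonate supply, release, further enzymes, receptors, transporters and regulators. Of these 114, 0 were called higher and 2 lower (1.75%, beside 0.569% of all probe sets), with a median change of 0.04. The 2 were LPCAT2 and AKR1C3. LPCAT2, an acyltransferase of the phospholipid pool that also makes platelet-activating factor, had signals of 10.79, 10.89 and 10.87 with the miR-543 vector, against 12.04, 11.93 and 11.48 with the control vector. No miR-543 array reached the lowest control array, and LPCAT2 fell by 0.97 on the log2 scale (SE 0.17; limma adjusted p = 0.0389), a signal 1.95-fold lower. The call was lost without control replicates 1 or 2 and without miR-543 replicates 1, 2 or 3 (adjusted p = 0.113 to 0.18).

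AKR1C3, the aldo-keto reductase that makes prostaglandin F compounds, had signals of 6.30, 6.55 and 6.41 with the miR-543 vector, against 7.17, 7.11 and 7.20 with the control vector. It fell by 0.74 (SE 0.14; limma adjusted p = 0.0488), a call that was lost when any single array was left out (0.105 to 0.202). Its close paralogs AKR1C1 and AKR1C2, whose probes may read related transcripts, had changes of -0.52 and -0.38 with no overlap between the groups and no call (adjusted p = 0.236 and 0.435). Elsewhere on that list of 14 measured prostanoid enzymes, the carbonyl reductase CBR3 had a change of 0.43 at a dim signal (adjusted p = 0.332), and the other prostaglandin E synthases PTGES2 and PTGES3 had 0.13 and 0.08.

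Release and supply of arachidonate held 1 called gene, LPCAT2. Of 23 measured genes of release 0 were called (0.569% of all probe sets were), with a median of 0.05 beside 0.013 over all probe sets, and the secreted phospholipase PLA2G12A and the lysosomal PLA2G15 had changes of 0.39 and 0.36 with adjusted p-values of 0.393 and 0.414. The cytosolic phospholipases PLA2G4A and PLA2G4E had -0.24 and -0.34 at dim signals. Of 8 measured genes of supply and reacylation LPCAT2 was the 1 called, the median was 0.06, and the acyl-CoA synthetases ACSL1 and ACSL4 had 0.37 and 0.22.

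Among 18 measured lipoxygenase and leukotriene genes 0 were called, 14 lay above 0 and the median was 0.17. The microsomal glutathione transferases, relatives of LTC4S and ALOX5AP, did not share a direction. MGST2, which can also make leukotriene C4, had signals of 11.35, 11.36 and 11.49 with the miR-543 vector, against 10.59, 10.82 and 11.17 with the control vector, a change of 0.54 (adjusted p = 0.28). MGST1 had 13.35, 13.01 and 13.06 with the miR-543 vector, against 13.55, 13.53 and 13.56 with the control vector, a change of -0.41 (adjusted p = 0.362). MGST3 went with MGST2, with a change of 0.27 (adjusted p = 0.559). In each of these genes the groups did not overlap, as in 15.4% of all probe sets, and none was called. The epidermal lipoxygenase ALOXE3 had a change of 0.38 at a dim signal (adjusted p = 0.461). Of 11 epoxygenases, omega-hydroxylases and epoxide hydrolases 0 were called and the median was -0.05, with -0.33 for the epoxide hydrolase EPHX1, -0.29 for CYP4A11 and -0.28 for CYP1A1.

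**Figure D5:**
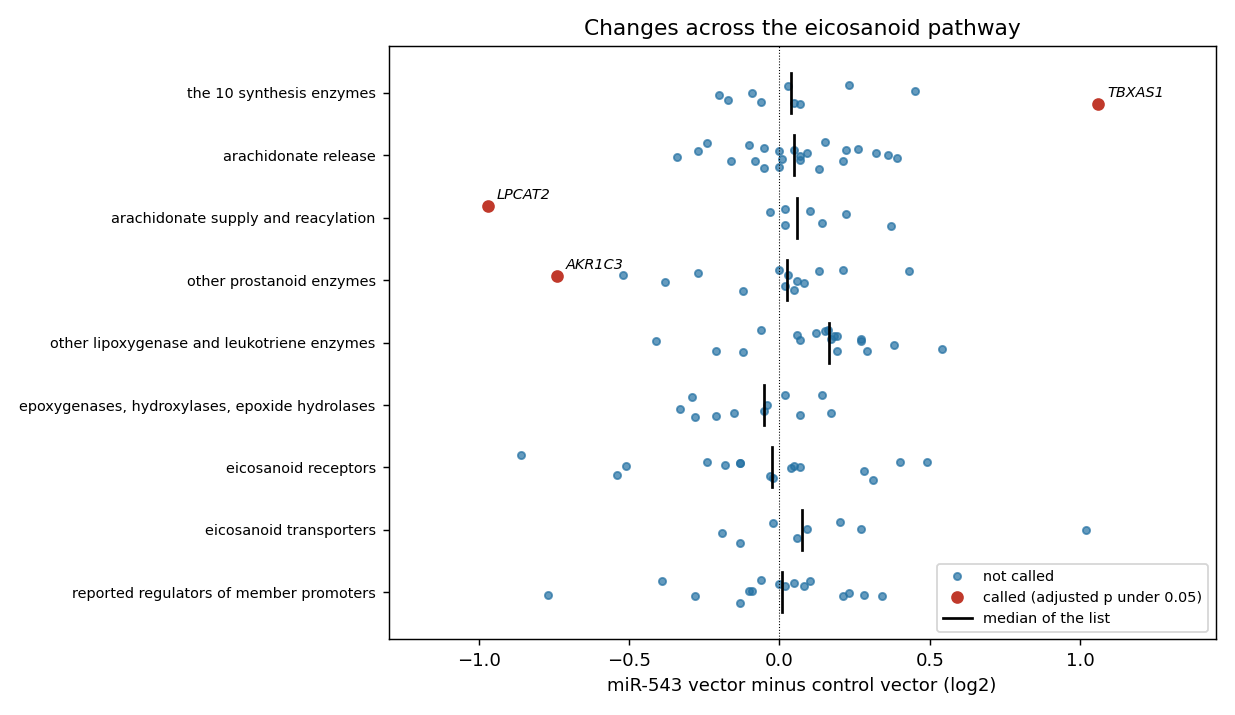
Log2 change (miR-543 vector minus control vector, x axis) of each measured gene in the 10 enzymes and the 8 pathway lists (rows), with black bars at list medians and red points for an adjusted p under 0.05. The 3 red points are TBXAS1 at 1.06, LPCAT2 at -0.97 and AKR1C3 at -0.74.

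Receptors and transporters had 0 calls among 16 and 8 measured genes, with medians of -0.02 and 0.07. TBXA2R, the receptor for the product of TBXAS1, had signals of 8.78, 8.66 and 8.24 with the miR-543 vector, against 9.02, 9.42 and 8.85 with the control vector, a change of -0.54 (SE 0.19; adjusted p = 0.371). PTGER3, a prostaglandin E2 receptor, had 8.26, 8.39 and 7.77 with the miR-543 vector, against 9.04, 8.94 and 9.01 with the control vector. Both receptors were lower on every miR-543 array than on any control array, as were 7.50% of all probe sets. The change of -0.86 for PTGER3 did not pass (adjusted p = 0.0767). Of the 16 receptors 3 had all miR-543 arrays below all control arrays and 3 had them above. Those above were CMKLR1, PTGER2 (change 0.40) and FPR2 (0.31), each below the array median on all 6 arrays. CMKLR1, a receptor for chemerin and for a resolvin, had a change of 0.49 (adjusted p = 0.276). The organic anion transporter SLCO2B1 had 8.16, 8.69 and 8.21 with the miR-543 vector, against 7.63, 7.34 and 7.03 with the control vector, a change of 1.02 (SE 0.20) just outside the threshold (adjusted p = 0.0616). ABCC2 and SLCO3A1 had 0.27 and 0.20 at dim signals.

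Of 16 measured transcription factors reported at promoters of these enzymes 0 were called, with a median of 0.01. NFE2, the p45 subunit of NF-E2, had signals of 11.29, 11.23 and 11.15 with the miR-543 vector, against 10.74, 10.93 and 10.98 with the control vector. Its groups did not overlap, as in 15.4% of all probe sets, and the change of 0.34 (SE 0.14) was not called (adjusted p = 0.423). VDR, the vitamin D receptor, which acts on ALOX5, had signals of 8.65, 8.79 and 8.93 with the miR-543 vector, against 9.53, 9.71 and 9.43 with the control vector. The VDR groups did not overlap either, and its change was -0.77 (SE 0.15, adjusted p = 0.058). EGR1 had -0.39 (adjusted p = 0.607). The part of these factors in the TBXAS1 value was not tested.

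Genes on either side of the enzymes on the chromosome were also read, the 2 nearest measured ones on each side. Of 40 such neighbours 0 were called, where 0.569% of all probe sets were, so little can be read from this count. In 8 of the 40 the groups of arrays did not overlap, beside 15.4% of all probe sets. Around TBXAS1, HIPK2 had a change of 0.34 (adjusted p = 0.405), CLEC2L 0.14, PARP12 -0.22 and KDM7A 0.05, against 1.06 for TBXAS1 itself. All miR-543 arrays lay above all control arrays for HIPK2 and below them for PARP12. The probe sets most like TBXAS1 over the 6 arrays, by Pearson's r, were RAPGEF2 (0.999), RCL1 (0.995), ARHGAP12 (0.99), FBXO8 (0.988) and FAM241A (0.985), with changes of 0.26 to 0.62 and no call. The most opposite were EPB41L2 (-0.999), ANXA7 (-0.994), OXNAD1 (-0.994), PAGE2B (-0.992) and TFB2M (-0.991), of which PAGE2B, a cancer-testis gene with close paralogs, was called lower (change -1.16). The PAGE2B call was lost in 5 of 13 alternative fits (limma adjusted p up to 0.102). Among the enzymes r with TBXAS1 was 0.91 for PTGES and between -0.61 and 0.20 for the other 8. These r describe 6 arrays that share the vector difference. The most alike and most opposite probe sets are extremes picked from 17687 named genes. No spread of r over all genes was taken, so nothing is read from the size of any r.

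Among markers of the blood cells known for eicosanoids, 3 genes were called in lists of 16, 14 and 11 measured markers, where 0.569% of all probe sets were called. They were PLEK, FCGR1A and HDC. Of 16 megakaryocyte and platelet markers PLEK was called higher (change 0.89, adjusted p = 0.035) and 10 lay above 0. Over all probe sets 7.89% had all miR-543 arrays above all control arrays and 7.50% had them below. In this list 3 had them above and 0 below. These 3 were PLEK, ITGA2B and PF4. ITGA2B, a subunit of the platelet fibrinogen receptor, had signals of 8.63, 8.69 and 8.83 with the miR-543 vector, against 7.84, 7.68 and 8.48 with the control vector (change 0.72, adjusted p = 0.235). PF4, a platelet chemokine, averaged 4.63 with the miR-543 vector and 4.22 with the control vector (change 0.41, adjusted p = 0.404). PLEK and PF4 lay below the array median on all 6 arrays. The other 6 markers of the list changed the other way, among them PPBP (-0.29), TUBB1 (-0.27) and GP6 (-0.20), none of them called. GP9, SELP and CLEC1B lay below the array lower quartile on all 6 arrays. The summed linear signal of the list ran between 4223.7 and 5334.9 on the miR-543 arrays and between 4091.9 and 5360.0 on the control arrays.

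Of 14 monocyte and macrophage markers FCGR1A was called higher (1.19, adjusted p = 0.00908), and 11 of the 14 lay above 0, with a median change of 0.06. Their sums were 40483.7 to 47144.0 on the miR-543 arrays and 39673.9 to 43453.3 on the control arrays, of which LYZ alone made up 85% to 90.2%. Of 11 mast cell and basophil markers HDC, the histidine decarboxylase, was called lower (-1.13, adjusted p = 0.0461). In that list 7 of 11 lay below 0 with a median of -0.13, 3 had all miR-543 arrays below all control arrays and 1 had them above, and FCER1A, CMA1 and CPA3 lay below the lower quartile on all 6 arrays. Their sums, 7692.3 to 8841.5 on the miR-543 arrays and 6769.6 to 8063.9 on the control arrays, were 79.8% to 84.1% ENPP3, whose change of 0.20 was opposite in sign to the median. The neutrophil, lymphoid, stromal and epithelial lists had 0 calls among 11, 13, 11 and 12 measured markers. The erythroid list had 0 calls among 13. Of its changes 12 of 13 lay above 0 (median 0.21), and of the stromal changes 10 of 11 (median 0.19), beside a median of 0.013 over all probe sets. This direction was therefore not particular to the erythroid list. All miR-543 arrays lay above all control arrays for 6 erythroid markers and 1 stromal marker, as for 7.89% of all probe sets. The erythroid sums did not overlap between the groups, with 369492.6 to 399463.9 on the miR-543 arrays and 319783.8 to 363924.6 on the control arrays. The stromal sums overlapped. The PLEK and HDC calls were each lost in 6 alternative fits and that of FCGR1A in 1, without control replicate 1 (adjusted p = 0.0574). The part of these markers in the TBXAS1 value was not tested, and in bulk RNA more cells of a type and more RNA per cell cannot be told apart.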

How the data were processed

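Expression was measured in K562 cells on 6 single-colour arrays, 3 per vector, grouped by the sample titles. The deposited values are log2 signals per probe set, made by the authors with Transcriptome Analysis Console 4.0 and RMA, per the submitters' processing notes. RMA corrects background and normalizes between arrays, so changes are relative to each array as a whole. The RMA variant and the genome build are not given in the sources used here. The table held 0 columns of other samples. Gene names came from the platform annotation and the RefSeq table of GRCh38.p14 (17709 probe sets with a single symbol), and sequences from RefSeq. All 21448 probe sets were tested with limma 3.58.1 in R 4.3.3 (lmFit and eBayes, no trend, filter or block), with Benjamini-Hochberg adjustment and a threshold of 0.05. The steps were tested on simulated data. The precision is limited by the number of arrays. The genes, lists and naming rule were chosen with earlier results of these data known. All 10 enzymes were named, with called genes and up to 3 of smallest p per pathway list, called markers, 2 neighbours per side and the 5 most alike and most opposite patterns. A few further genes (PTGES2, PTGES3, AKR1C2, PLA2G4A, MGST3, PTGER2, FPR2, ITGA2B, PF4 and further markers) were named after their values were seen. Alternatives were a shift to equal medians, quantile normalization, trend and robust settings, filters at the 25th and 50th percentile, named probe sets only, a replicate block, leaving out each array, and a permutation test. Running them on the pathway, marker, neighbouring and like-patterned genes was added after seeing the data, and the promoter motifs were chosen after the TBXAS1 sequence had been seen.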

Additional observations from a re-analysis of the deposited data

How the results depend on the processing

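Over 13 alternative fits, TBXAS1 kept its direction with changes of 0.88 to 1.27 and was called in 6. Its change was 1.06 in every fit that kept all 6 arrays, and the call was lost after a shift to equal medians (adjusted p = 0.0511) and with a replicate block (0.0692), as it was by the exact permutation test, which cannot pass at this size. The enzymes called numbered 0 after the shift and with the replicate block, and 0 to 1 when an array was left out. Of the 114 pathway genes, 5 were called over the 50th percentile filter, 4 with named probe sets only, 4 with the trend and robust settings, 0 with the replicate block and 0 to 1 when an array was left out. PTGER3, SLCO2B1 and VDR were among those gained, each in at least 2 fits, and LPCAT2 and AKR1C3 were lost in 6 and 8. All probe sets called numbered 252 with the trend and robust settings, 71 with the replicate block and 34 to 59 when an array was left out. Same-numbered arrays of the 2 groups shared little (r of deviations 0.09, -0.05 and 0.02), so the numbers were not taken as pairs. The other 9 enzymes kept their direction in 100 of 110 fits and were called in 0. Without single arrays the changes ran from -0.28 to 0.05 for ALOX5, -0.24 to 0.09 for ALOX5AP, -0.05 to 0.08 for LTA4H, -0.14 to 0.23 for LTC4S and -0.07 to 0.26 for PTGDS, and -0.14 to 0.31 for CLEC2L. The cause was not tested. Dim signals limit the 6 enzymes below the array median on all arrays, PTGS2, PTGES, PTGDS, ALOX5, ALOX5AP and LTC4S.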
